A study of Mus musculus with 13 samples.

Results

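The cytosolic ribosomal protein genes code for the proteins that, together with ribosomal RNA, build the small (40S) and large (60S) subunits of the ribosome outside mitochondria. They were taken from the table as every row named Rpl or Rps followed by a number, with at most one a or x after it, and as Rpsa, Rplp0, Rplp1 and Rplp2. The rule gave 77 of the 23217 rows: 31 for the 40S subunit, 43 for the 60S subunit and 3 for the stalk proteins Rplp0, Rplp1 and Rplp2, which form the flexible arm of the large subunit that recruits translation factors. The members lie on 19 chromosomes, with 14 on chromosome 7 and 4 on chromosome X, and all 77 had a mean of at least 1 FPKM.

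The 13 samples were mouse embryos collected at embryonic day 9.5. Their strain background was C57BL/6J, and 3 were named xHet and 10 xHomo, names that the labels leave unexplained. The series deals with the role of Tet1, an enzyme that oxidizes 5-methylcytosine, in erasing genomic imprints, and both groups share strain, stage and tissue. From each embryo poly(A) RNA was made into a directional sequencing library, and each level is given in FPKM, a fragment count divided by transcript length and by the library's mapped fragments. No label says which embryos came from separate litters, so the p-values below measure only the spread between these samples.

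Ribosomal protein mRNAs are short, very abundant and of nearly equal demand, since each ribosome holds about one copy of most of the proteins. Most of them start with a C and a run of pyrimidines, the 5′ terminal oligopyrimidine tract (TOP), through which the mTOR kinase controls their translation together with that of many translation factors. The genes are scattered over the genome, which also carries many processed copies of them, most without function, whose sequences resemble the mRNAs.

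Start regions of members are printed first, because the tract is a sequence feature that the choice of rows did not use. RefSeq promoters on the GRCm38.p6 build were found for 57 of the 77 members. At 13 of these, or 22.81%, the annotated first base was a C followed by at least 4 more C or T, against 3.13% of the 9844 genes tested here that had a promoter and 3.01% of all 27025 genes with one. Most members thus lacked the run at the annotated first base, and how exact the annotated starts are was not tested. The lines below are all from the 13 members with the run. They go from 10 bases before to 20 bases after and including the annotated first base, on the gene's strand. The pyrimidine run from the first base is in capitals.
Rps6, chr4:86857348-86857377, minus strand: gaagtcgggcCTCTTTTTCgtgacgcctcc
Rps10, chr17:27635225-27635254, minus strand: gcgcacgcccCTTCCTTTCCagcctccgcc
Rps27, chr3:90213629-90213658, minus strand: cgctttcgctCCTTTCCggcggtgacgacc
Rpl15, chr14:18270967-18270996, minus strand: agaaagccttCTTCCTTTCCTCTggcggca
Rpl35, chr2:39005112-39005141, minus strand: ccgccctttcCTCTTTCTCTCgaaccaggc
Rpl38, chr11:114668570-114668599, plus strand: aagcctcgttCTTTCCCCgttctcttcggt
Rplp2, chr7:141447641-141447670, plus strand: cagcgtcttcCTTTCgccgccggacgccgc
The run was 9 bases long in Rps6, the ribosomal protein phosphorylated by S6 kinase, 13 in Rpl15 and 5 in Rplp2. A C followed by at least 6 pyrimidines lay anywhere in the same 30-base window in 27 of the 57 members (47.37%), against 17.08% of the tested genes. Of 66 mitochondrial ribosomal protein genes with a promoter, 0 had the run at the first base, and of 13 genes for translation factors and other TOP mRNAs 3 had it.

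In the 300 bases from 250 before to 50 after the start, CCGGAAG, the core bound by ETS-family factors such as GABP, occurred on either strand in 24 of 57 members (42.11%) and in 20.24% of the tested genes. The share was 34.85% in mitochondrial ribosomal protein genes. AAGATGGC, the core of the YY1 motif, was in 5 members (8.77%) and in 5.31% of the tested genes. TATAAA in the window from 40 to 16 bases before the start was found in 0 of 57 members and in 1.49% of the tested genes. These are matches of letters, not bound sites.

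Across the series 1 library stood apart before any member was considered. In xHomo 3 the median of the 12755 tested genes lay at -0.27 log2 units from the xHet mean, while in the other 9 xHomo embryos it lay between -0.003 and 0.17, and small RNA rows held 12.7% of its summed FPKM against 17.0% to 27.4% elsewhere. Markers of heart, neural tube, somites, vessels and trunk were all present, and their 10-gene sum ran from 326.1 to 336.2 FPKM in xHet and from 294.6 (xHomo 3) to 446.6 (xHomo 10) in xHomo embryos. Of 9 trophoblast and decidua markers 3 reached a mean of 1 FPKM, and Tpbpa, a defining gene of the spongiotrophoblast, was at 0 in every embryo. The sum of 7 visceral endoderm and yolk sac markers was 36.1 to 48.2 FPKM in xHet and lowest, at 12.9, in xHomo 3 and highest, at 76.2, in xHomo 5, and that of 10 primitive erythroid genes was 5186 in xHomo 4 and 15313 in xHomo 1 against 10084 to 10224 in xHet. The part of these differences in the ribosomal protein values was not tested. In whole embryos, more cells rich in ribosomes and more ribosomal protein mRNA per cell cannot be told apart.

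The members were among the most abundant mRNAs of the embryo. Their mean over the 13 embryos ran from 17.6 FPKM (Rpl26) to 3973 FPKM (Rplp1) with a median of 1191 FPKM, and 52 of 77 had a mean over 1000 FPKM. Together they held 15.2%, 13.8% and 13.7% of the summed FPKM in xHet 1, 2 and 3. In the xHomo embryos they held between 13.8% (xHomo 4) and 22.2% (xHomo 9), with 21.9% in xHomo 3. The median of member means was 1434 FPKM over the 31 proteins of the 40S subunit, 1130 FPKM over the 43 of the 60S subunit and 1675 FPKM over the 3 stalk proteins.

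At the top stood Rplp1, one of the acidic stalk proteins that are present in more than one copy per ribosome, followed by Rpl41, the smallest ribosomal protein, at 3498 FPKM and Rpl39, a small protein of the nascent peptide exit tunnel, at 2841 FPKM. Rps2, which lines the mRNA entry channel, followed at 2219 FPKM, then Rpl35 at 2034, Rpl38 at 1976, Rps29 at 1969 and Rps26 and Rpl32 at 1947 each. The ranges of neighbours in this order overlapped: Rplp1 ranged from 3054 to 4974 FPKM over the 13 embryos and Rpl41 from 2588 to 4764. Within every single embryo, however, Rplp1 was above Rpl41 and Rpl41 above Rpl39. Rplp1 (chr9:61761090-61762317 on mm9, the build of the table) was at 3810, 3079 and 3054 FPKM in the 3 xHet embryos and had a lowest value of 3198, a median of 4309 and a highest of 4974 FPKM in the xHomo embryos, where xHomo 7 was highest. Across members, mean FPKM and transcript length had a Spearman rho of -0.29 over the 73 rows without a jump (defined further on), which share their libraries.

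At the lower end, 4 rows had a mean under 200 FPKM. These were Rps27 (183 FPKM), Rps15a (93.4), Rpl30 (37.5) and Rpl26 (17.6). Above them came Rpl22, an RNA-binding protein needed for T cell development, at 208 FPKM, Rpl21 at 344, Rpl37 at 494 and Rpl15 at 636. Rps15a kept its low level in every embryo, with 88.0, 71.5 and 70.5 FPKM in xHet 1, 2 and 3 and 69.1 to 128 FPKM in the xHomo embryos. The other 3 of the lowest 4 rows were listed at the same locus as a second row, as described further on.

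**Figure D1:**
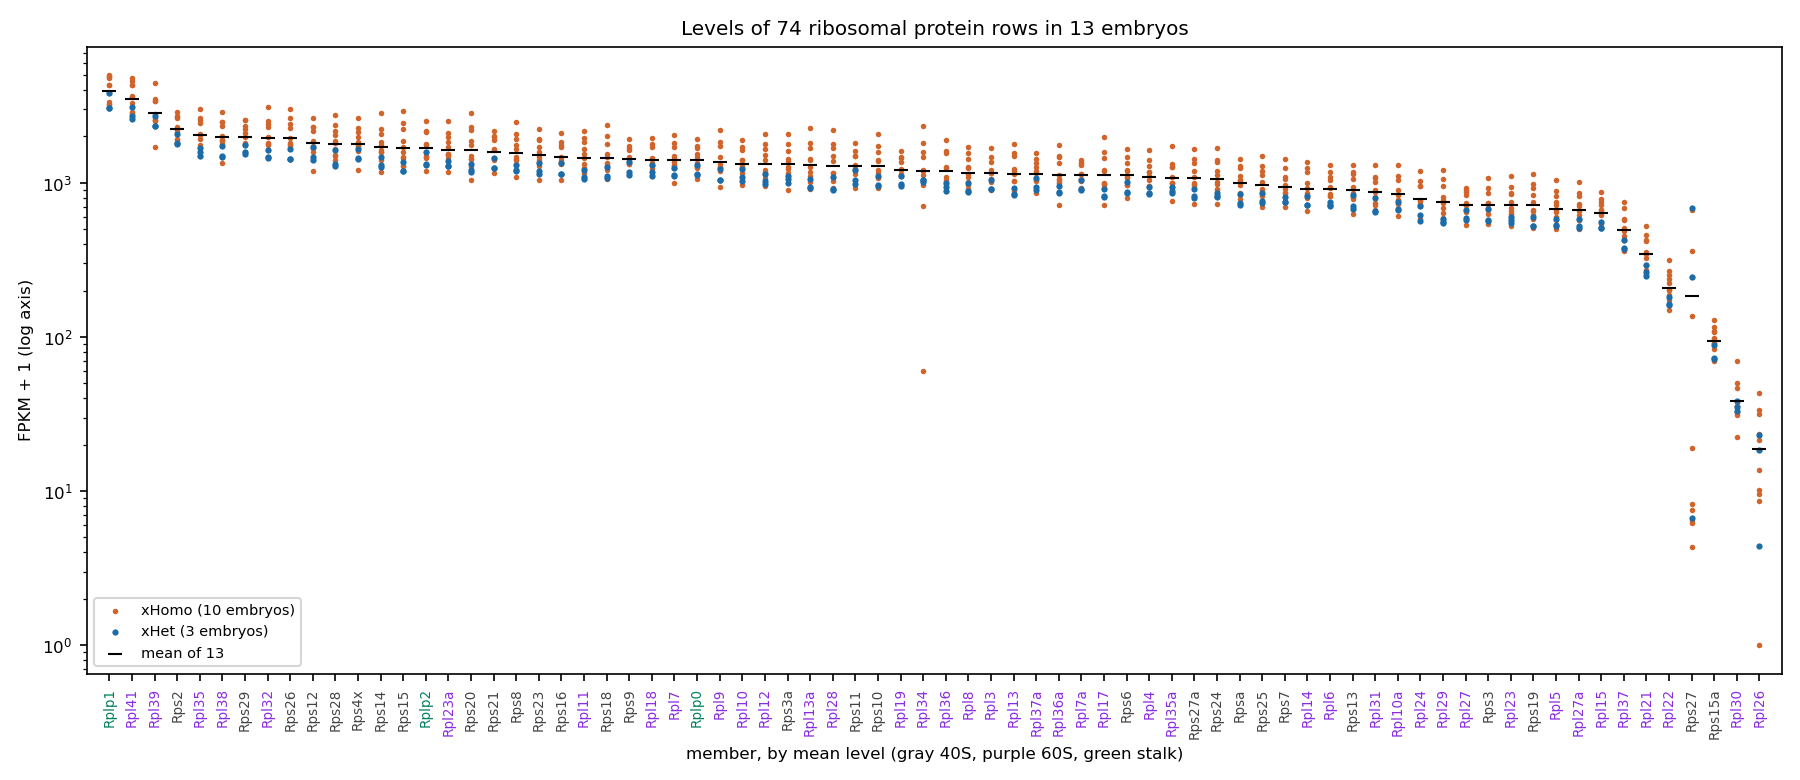
FPKM plus 1 on a log axis for 74 of the 77 members, ordered by mean; blue points are the 3 xHet embryos, orange points the 10 xHomo embryos and black dashes the mean of 13. Points of most members span a factor of about the median ratio of 2.11, while Rps27 spans from 3.33 to 682 FPKM, Rpl34 has 1 point at 58.7 FPKM and Rpl26 has 1 at 0.

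Nearly all members were high and low in the same embryos. The shared shift of an embryo is the median over the 77 members of log2(FPKM+1) minus the mean of the 3 xHet embryos for the same gene. It was 0.13, -0.06 and -0.07 in xHet 1, 2 and 3. In xHomo 9 it was 0.90 (1.87-fold), in xHomo 8 0.68 (1.6-fold), in xHomo 7 0.61 (1.52-fold), in xHomo 3 0.49 (1.41-fold) and in xHomo 10 0.38 (1.30-fold). The other 5 xHomo embryos were at 0.27 (xHomo 5), 0.20 (xHomo 6), 0.15 (xHomo 1), 0.10 (xHomo 2) and -0.14 (xHomo 4, 0.907-fold). The xHomo embryos thus covered the whole xHet range and went beyond it on both sides, with a mean of 0.36 ± 0.31 (SD, n = 10) against 0.00 ± 0.11 (n = 3), where the xHet mean is near 0 by construction.

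The same median over all 12755 tested genes moved much less, from -0.27 (xHomo 3) to 0.17 (xHomo 5). Relative to it the members were at 0.82 in xHomo 9, 0.76 in xHomo 3, 0.57 in xHomo 8, 0.55 in xHomo 7 and 0.32 in xHomo 10, and at -0.24 in xHomo 4. In xHomo 9, 75 of 77 members lay above all 3 xHet embryos, against 47% of tested genes, and in xHomo 7 also 75 of 77, against 43.4%. The count was 74 of 77 in xHomo 3 (background 20.1%), xHomo 8 (49.6%) and xHomo 10 (41.7%), 72 in xHomo 5 (60.5%), 55 in xHomo 6 (51.2%), 51 in xHomo 1 (30.9%) and 28 in xHomo 2 (27.8%). In xHomo 4, 1 member was above all xHet embryos (background 49%) and 47 were below all of them (background 17.7%).

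The order of embryos was nearly the same in every member. The highest of the 13 embryos was xHomo 9 for 73 of 77 members, the lowest xHomo embryo was xHomo 4 for 70, and the highest xHet embryo was xHet 1 for 76. In 68 members the order from the top among 4 embryos was, on the deposited scale, xHomo 9, 8, 7 and 10. The stalk protein Rplp0 shows the pattern at 1313, 1145 and 1130.07 FPKM in xHet 1, 2 and 3, 1053 in xHomo 4 and 1937 in xHomo 9. The 73 rows without a jump differed between their highest and lowest embryo by 1.55-fold (Rpl7a) to 2.79-fold (Rpl17), with a median of 2.11-fold. The shift in xHomo 9 was 0.88 for the 40S, 0.93 for the 60S and 0.70 for the stalk proteins, and that in xHomo 4 was -0.18, -0.10 and -0.18.

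**Figure D2:**
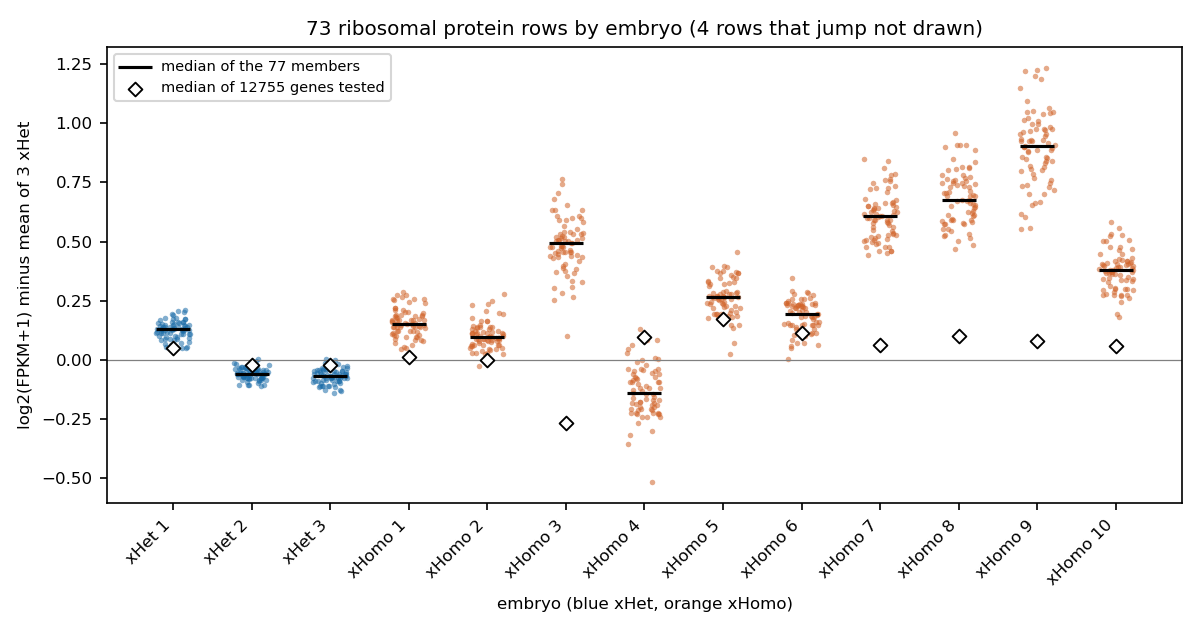
Each point is 1 of 73 members in 1 embryo, as log2(FPKM+1) minus the mean of the 3 xHet embryos; black bars are the median of the 77 members and white diamonds the median of all 12755 tested genes. Bars run from -0.14 in xHomo 4 to 0.90 in xHomo 9, and the diamond of xHomo 3 lies at -0.27 while its bar lies at 0.49.

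The size of this shift depended on the scale. Its range over the 13 embryos was 1.05 log2 units as deposited and 1.065 under median-of-ratios scaling. It was 0.72 after each embryo was rescaled to a fixed sum (TPM) and 0.71 when that sum left out small RNA rows. After quantile normalization, which sets equal distributions in all embryos, it was 0.45. xHomo 9 was highest and xHomo 4 lowest under each of these but quantile normalization, where xHomo 3 was highest and xHomo 1 lowest. The order between these ends changed with the scale. As deposited, the shift was 0.49 in xHomo 3, below xHomo 8 (0.68) and xHomo 7 (0.61). In TPM it was 0.64 in xHomo 3 and 0.48 in xHomo 7, both above xHomo 8 at 0.41. Under median-of-ratios scaling xHomo 3 (0.80) was second to xHomo 9 (0.81).

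The comparison of xHomo with xHet asks whether these genes differ in level between the groups, and the single-gene test found no member that did. By limma on log2(FPKM+1) with Benjamini-Hochberg adjustment over 12755 genes at 0.05, 0 of 77 members passed in either direction, beside 0.0235% of tested genes higher and 0% lower in xHomo. The mean of log2(FPKM+1) was higher in xHomo for 75 of 77 members, where 59.7% of tested genes were. Lists further on were counted on the same scale. In FPKM the mean of Rpl34, 1 of the remaining members, was higher in xHomo (1247 against 1032). The median log2 difference was 0.36 against 0.05 over all genes. At an unadjusted p under 0.05, 12 members were higher, beside 7.63% of tested genes, and 0 were lower, beside 1.72%. Genes more like the members also leaned higher. Among 861 other genes with transcripts under 1000 bases, 687 were higher, with a median difference of 0.16. At the same unadjusted limma threshold, 164 of the 861 were higher and 6 lower. Among 221 other genes with a mean of at least 200 FPKM, 194 were higher, with a median difference of 0.19. There 51 were higher and 1 lower at that threshold. An exact permutation test per gene over all 286 splits of the 13 embryos called 0 members after adjustment, as it called 0% of all genes. The smallest p it can give is 0.0035, so a gene could pass adjustment only if many genes reached that value. Its 0 therefore adds little to that of limma. It gave 15 members an unadjusted p under 0.05, beside 7.96% of genes higher. In 0 of 77 members did the groups not overlap, where 1.66% of tested genes were higher and 0.58% lower without overlap. At least 7 of 10 xHomo embryos exceeded all xHet embryos in 66 members, beside 24.7% of tested genes. In 47 members exactly 1 xHomo embryo lay below all of them, beside 22.2% of tested genes.

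The count at an unadjusted p under 0.05 changed when single embryos were left out. Leaving out xHomo 4, the embryo with the lowest shift, raised the members with an unadjusted p under 0.05 from 12 to 64. Leaving out xHet 2 or xHet 3 brought them to 0, and in each of these fits 0 members passed after adjustment. The share of all tested genes at that threshold was not computed for these fits, so the counts cannot be set against a background. The median difference of the members was 0.414 without xHomo 4, 0.333 without xHet 2 and 0.322 without xHet 3. With limma's array weights, which gave xHomo 3 the lowest weight (0.104) and xHet 2 the highest (3.69), 68 members passed as higher in xHomo, where 18.6% of all genes were called higher and 3.2% lower. The median difference of 0.36 was 0.13 after quantile normalization and 0.18 in TPM without small RNA rows. With log2 Xist as a covariate, or among embryos with Xist under 1 FPKM, it was 0.23. The medians of all genes in these 4 settings, in this order, were 0.011, -0.12, 0.085 and 0.102. The members thus exceeded all genes by 0.12, 0.301, 0.142 and 0.125, beside 0.314 in the main fit. Xist was at 112 to 159 FPKM in xHomo 2, 7, 9 and 10, at 30.5 in xHomo 3 and at most 0.1 in the other 8 embryos, and its part in the result was not tested.

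Among the 40S proteins, Rpsa, also known as the laminin receptor precursor, had the smallest p of all members. It was at 841, 719 and 737 FPKM in xHet 1, 2 and 3 and ran from 790.31 (xHomo 2) over a median of 1047 to 1435 FPKM (xHomo 9), so that 8 of 10 xHomo embryos were above all xHet embryos and the groups overlapped. Its log2 difference was 0.45 (SE 0.17, limma adjusted p = 0.507). Rps15a, a small-subunit protein, had a difference of 0.35 (SE 0.15, limma adjusted p = 0.521). Rps15, a protein of the subunit's head, had the largest difference among the 73 rows without a jump, 0.49 (SE 0.23, limma adjusted p = 0.532). Rps4x and Rps2 had differences of 0.28 each.

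Among the 60S proteins, the smallest p-values belonged to Rpl6, Rpl11, Rpl13, Rpl29 and Rpl8, among others. Rpl6 was at 749.63, 712 and 708 FPKM in the xHet embryos and between 727 (xHomo 4) and 1302 (xHomo 9) in the xHomo embryos, with 9 of 10 above all xHet. Its difference was 0.40 (SE 0.16, limma adjusted p = 0.513). Rpl11, which with Rpl5 and 5S rRNA forms a particle that can bind the p53 regulator Mdm2, was at 1204, 1083 and 1055 FPKM in xHet 1, 2 and 3, and 9 of 10 xHomo embryos were higher. Differences were 0.46 for Rpl11, 0.47 for Rpl13, 0.47 for Rpl29 and 0.40 for Rpl8, which lies by the peptidyl transferase centre, with SEs from 0.18 to 0.20 and limma adjusted p-values from 0.517 to 0.524. The stalk proteins were similar in direction, at 0.32 for Rplp1, 0.30 for Rplp2 and 0.27 for Rplp0, with limma adjusted p-values from 0.59 to 0.643. Over the 73 rows without a jump, differences ran from 0.22 (Rpl39) to 0.49 (Rps15) and limma adjusted p-values from 0.507 to 0.777.

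Members known from inherited disease and mouse mutants had differences within the range of the other members. The 9 listed members mutated in Diamond-Blackfan anaemia, a failure of red cell production, included Rps19, Rps24, Rpl35a, Rpl5, Rpl11, Rps7, Rps10 and Rps26. Their differences ran from 0.30 (Rpl35a) to 0.46 (Rpl11) with a median of 0.39. After adjustment 0 of 9 passed limma, beside 0.0235% of tested genes higher and 0% lower. At an unadjusted limma p under 0.05, 2 (Rpl11 and Rps26) were higher, beside 7.63% of tested genes higher and 1.72% lower. Counts over so few genes cannot set them apart from those shares. Rps19, the gene most often affected in that disease, had a mean of 547.8 FPKM over the xHet and 766 FPKM over the xHomo embryos, a difference of 0.44 (SE 0.21, limma adjusted p = 0.531). The 5 listed members with developmental mutants in mice were Rpl38 (Tail short), Rpl24 (Belly spot and tail), Rpl27a, Rps7 and Rps20. Their differences were 0.33 to 0.46, and 0 of 5 had an unadjusted p under 0.05, again too few genes to set against the shares above. Rpl38, needed for translation of Hox mRNAs, was at 1729, 1498 and 1460.42 FPKM in xHet 1, 2 and 3 and between 1343 (xHomo 4) and 2877 FPKM (xHomo 9) in the xHomo embryos.

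Once the shared shift was taken off, little variation was left. The median SD over the 13 embryos was 0.32 log2 units before and 0.067 after, 60 of 77 members were under 0.1 and 73 under 0.2. The steadiest rows were Rpl5 (0.028), Rpl27a (0.029), Rpl22 (0.030), Rps23 (0.033) and Rps7 (0.035). Rpl22 was among them although its level, 208 FPKM, was far below that of most members. The rank order of the 73 rows without a jump was also kept, with Spearman rho between 0.943 and 0.995 over the 78 pairs of embryos, a description of libraries that share gene lengths and sequence.

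Each xHomo embryo had rows that departed from the shared shift by more than 0.1 log2 units. All 73 rows lay within 0.1 log2 units of it in each xHet embryo, where the reference is their own mean. Within 0.1 lay 38 rows in xHomo 9, 45 each in xHomo 7 and xHomo 8, 47 in xHomo 3, 51 in xHomo 4, 56 in xHomo 10, 58 in xHomo 5 and 62 to 66 in xHomo 1, 2 and 6. In xHomo 4 the departures ran from -0.38 (Rpl39) to 0.27 (Rpsa). In xHomo 9 the largest departures were 0.33 (Rpl17) and -0.35 (Rpl7a), with Rplp1 at -0.34. Rps15 had the largest SD of these 73 rows, 0.132, and lay above the shift by 0.24 in xHomo 7, 0.28 in xHomo 8 and 0.20 in xHomo 10.

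Rpsa departed in other embryos, with the highest value of the 73 rows in xHomo 4 (0.27), xHomo 5 (0.19) and xHomo 6 (0.15). The 4 X-linked members were Rpl10, Rpl36a, Rpl39 and Rps4x. Their differences ran from 0.22 (Rpl39) to 0.39 (Rpl36a). Of these 4, 0 had an unadjusted limma p under 0.05, beside 7.63% of tested genes higher and 1.72% lower. So few genes cannot be set against those shares. Rpl39 (chrX:34622515-34625179, mm9) was the lowest of the 73 rows against the shift in xHomo 4 (-0.38), xHomo 5 (-0.24) and xHomo 8 (-0.21), and stood at 0.01 in xHomo 3. Its values were 2720 FPKM, 2339 and 2351 in xHet 1, 2 and 3 and between 1720 (xHomo 4) and 4414 FPKM (xHomo 9) in the xHomo embryos.

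In xHomo 3, the library that stood apart, departures went with coding length, and less with transcript length. Spearman rho of departure and coding length over the 73 rows was -0.57 there, -0.11 in xHomo 9 and between -0.20 and 0.29 in the other 11 embryos. With transcript length rho was -0.27 in xHomo 3 and 0.029 in xHomo 9. The 25 members with the shortest coding sequences (78 to 411 bases) had a median departure of 0.05 in xHomo 3, the middle 24 of -0.01, and the 24 longest (585 to 1260 bases) of -0.07. Rps28 and Rpl36a were highest there, at 1.70-fold and 1.67-fold over the xHet mean, and Rpl18 lowest at 1.07-fold.

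**Figure D3:**
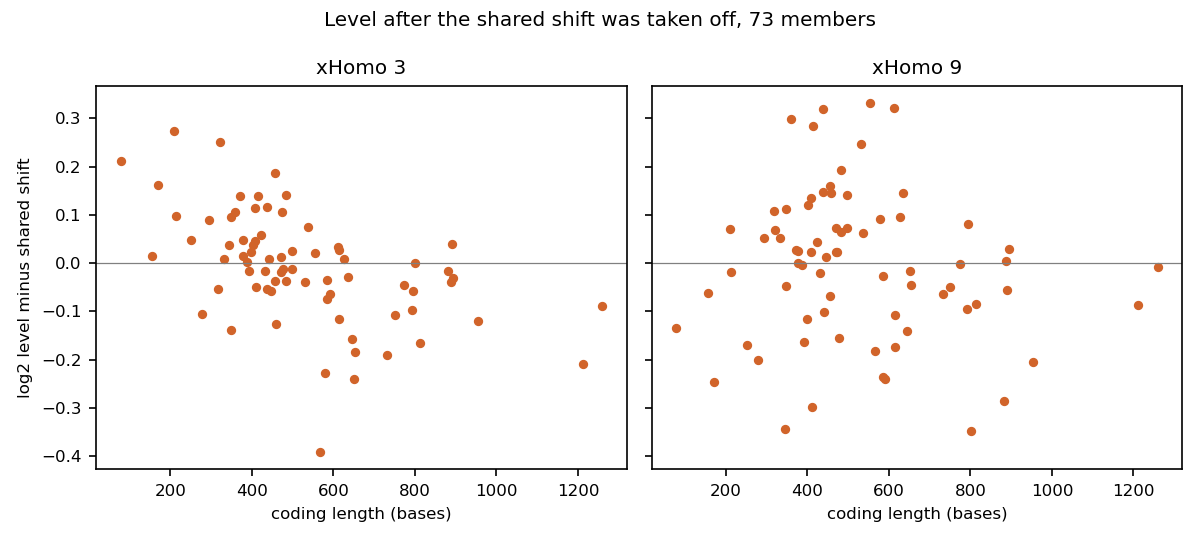
Level of the 73 rows after the shared shift was taken off, in log2 units, against coding length in bases, in xHomo 3 (left) and xHomo 9 (right). Points fall from left to right in xHomo 3 (Spearman rho -0.57) and show little slope in xHomo 9 (-0.11).

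Other genes of translation shifted by embryo to different degrees. Fau, which carries a ribosomal protein fused to a ubiquitin-like part, and Gnb2l1, the 40S scaffold protein Rack1, fell outside the naming rule. Fau was at 741, 634 and 661 FPKM in xHet 1, 2 and 3 and between 695 (xHomo 4) and 1653 FPKM (xHomo 9) in xHomo embryos, a difference of 0.53 (SE 0.23, limma adjusted p = 0.521). Gnb2l1 was at 875, 776 and 769 FPKM in xHet 1, 2 and 3 and between 709 (xHomo 4) and 1316 FPKM (xHomo 9) in xHomo embryos, a difference of 0.25 (SE 0.17, limma adjusted p = 0.638). The 19 translation factors and other TOP mRNAs had a median shift that ranged over 0.72 log2 units, beside 1.05 for the members. It was at 0.66 in xHomo 9 and 0.52 in xHomo 8. In the xHomo mean 19 of 19 were higher, with 0 passing limma after adjustment. At an unadjusted limma p under 0.05, 8 were higher, beside 7.63% of tested genes. Eef2, the translocation factor, was at 557, 524 and 528 FPKM in the xHet embryos and between 558 (xHomo 2) and 1068 FPKM (xHomo 9) in the xHomo embryos.

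Other lists of the ribosome pathway moved less from embryo to embryo. The 75 mitochondrial ribosomal proteins ranged over 0.34 log2 units and were at 0.12 in xHomo 9, with 63 of 75 higher in the xHomo mean and 0 passing limma after adjustment. At an unadjusted limma p under 0.05, 13 of the 75 were higher and 2 lower, beside 12 higher and 0 lower of the 77 members. The 36 ribosome biogenesis factors, which process ribosomal RNA and assemble subunits in the nucleolus, ranged over 0.35 and were at -0.13 in xHomo 9, with 20 of 36 higher and 0 passing. Of these, 2 were higher and 0 lower at the unadjusted threshold, where 7.63% of tested genes were higher and 1.72% lower. Nop56, a core protein of box C/D snoRNA particles, was at 244.65, 225 and 235 FPKM in xHet 1, 2 and 3 and 151.9 (xHomo 3) to 235 FPKM in xHomo embryos (difference -0.21, SE 0.12, limma adjusted p = 0.59). The 861 other genes with transcripts under 1000 bases ranged over 0.36 and the 221 other genes with a mean of at least 200 FPKM over 0.38. Replication-dependent histones ranged over 1.20, but in another order, with their highest value, 1.12, in xHomo 1, where the members were at 0.15.

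Of the paralogs with a mean of at least 1 FPKM, Rpl36al was at 299.53 to 384 FPKM in xHet and 308 to 522 FPKM in xHomo embryos, Rpl22l1 at 691 to 704 and 459 to 1092, Rps27l at 279 to 309 and 252 to 442, and Rpl7l1 at 53.6 to 58.5 and 50.4 to 68.5. Rpl22l1 thus stood higher per length than Rpl22, whose highest embryo had 314 FPKM. The testis and muscle paralogs Rpl10l, Rpl39l and Rpl3l stayed at or below 0.41 FPKM. Of the 14 p53 targets, which respond to free Rpl5 and Rpl11 among other signals, 11 were higher in the xHomo mean and 0 passed limma after adjustment. At an unadjusted limma p under 0.05, 4 were higher, beside 7.63% of tested genes. Their median was highest, 0.43, in xHomo 9, and Cdkn1a was at 3.48, 3.20 and 2.56 FPKM in xHet 1, 2 and 3 and 8.39 FPKM in xHomo 9.

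**Figure D4:**
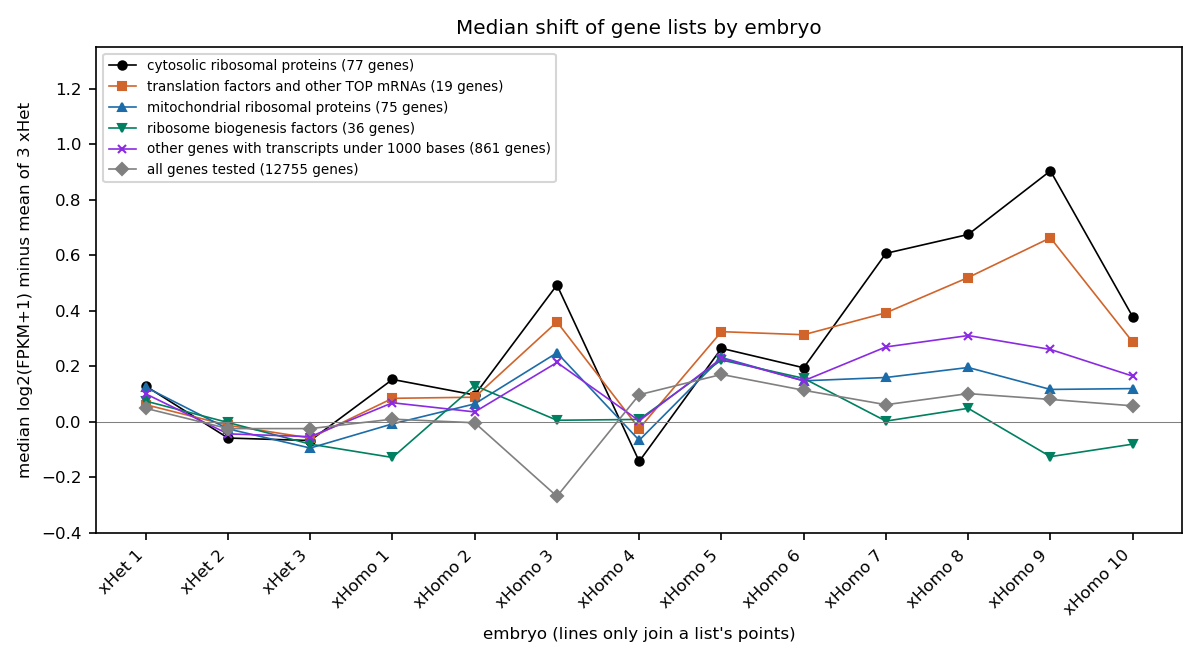
Median log2(FPKM+1) minus the xHet mean in each embryo for 6 sets of genes; lines only join the points of a set. In xHomo 9 the cytosolic ribosomal proteins are at 0.90, translation factors and other TOP mRNAs at 0.66, mitochondrial ribosomal proteins at 0.12 and biogenesis factors at -0.13.

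Exactly 4 members left the common pattern by a jump, defined as a level at least 1 log2 unit from the row's own median over the 13 embryos after the median of such deviations over all members was taken off. They were Rps27, Rpl34, Rpl26 and Rpl30. For all tested genes the median deviation over those genes was taken off instead, and jumps were seen in 6.62% of them. Among the 371 with a mean of at least 200 FPKM, small RNA rows included, the share was 24.5%. These shares are not like for like with the member count, which by itself does not set the members apart. The SDs of the 4 after the shift were 3.03, 1.29, 1.38 and 0.56, beside 0.13 for the next row, Rps15.

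Rps27, a zinc-binding protein of the 40S subunit (chr3:90016589-90017570, mm9), was at 682, 243 and 5.69 FPKM in xHet 1, 2 and 3. In xHomo embryos it was at 662 (xHomo 4), 363 (xHomo 3), 244 (xHomo 7) and 135.0 (xHomo 6), and at 3.33 to 17.96 in the other 6. High and low values thus occurred in both groups, 205-fold apart, and 12 of 13 embryos counted as a jump. The log2 difference was -1.64 with an SE of 1.72 (limma adjusted p = 0.783), and it was -0.28 without xHet 1 and -3.62 without xHet 3. The table lists a second row at the same locus, Gm9846, now called Rps27rt, which is an intronless copy of the gene that the reference annotation places on another chromosome.

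Both carry the same 255 coding bases, with 0 differences in the GENCODE M21 transcripts. The sequence is printed because no fragment within it can be assigned to either row.
Rps27 and Gm9846, coding bases 1 to 255: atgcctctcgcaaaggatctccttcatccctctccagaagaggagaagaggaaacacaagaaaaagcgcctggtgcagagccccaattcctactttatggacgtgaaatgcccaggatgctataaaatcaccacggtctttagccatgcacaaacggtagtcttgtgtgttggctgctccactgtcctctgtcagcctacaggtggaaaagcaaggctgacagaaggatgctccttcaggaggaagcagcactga
Gm9846 was at 1473, 1536 and 1866 FPKM in xHet 1, 2 and 3 and was lowest, at 762 FPKM, in xHomo 4, where Rps27 was near its highest. Rps27 held between 0.142% and 46.5% of the sum of both rows. The sum was at 2155, 1779 and 1872 FPKM in the xHet embryos. In the xHomo embryos it lay between 1424 (xHomo 4) and 3640.08 FPKM (xHomo 9), the same lowest and highest xHomo embryo as in most other members. Between these ends the order differed in part, with xHomo 5 (2058) and xHomo 6 (2070) below xHet 1. The sum had an SD of 0.10 after the shift and a largest gap from it of 0.296. Its log2 difference was 0.30 (SE 0.22, limma adjusted p = 0.68).

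Rpl34, a protein of the 60S subunit (chr3:130429749-130433247, mm9), jumped in 1 embryo. It was at 1040.02, 1012 and 1044 FPKM in the xHet embryos and at 705 to 2355 FPKM in 9 xHomo embryos, and at 58.7 FPKM in xHomo 3. The row listed at the same locus, Rpl34-ps1, was at 317 to 654 FPKM in 12 embryos and at 1895 FPKM in xHomo 3. The coding sequences differed at 2 of 354 positions, counted from the A of the start codon, T132C and C318G with the Rpl34 base first. The 61 bases around each are printed with the differing base in capitals, since only fragments that cover one of them differ between the rows within the coding sequence.
Rpl34, coding bases 102 to 162: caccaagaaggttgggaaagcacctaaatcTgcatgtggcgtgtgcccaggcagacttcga
Rpl34-ps1, coding bases 102 to 162: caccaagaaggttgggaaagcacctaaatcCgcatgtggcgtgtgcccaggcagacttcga
Rpl34, coding bases 288 to 348: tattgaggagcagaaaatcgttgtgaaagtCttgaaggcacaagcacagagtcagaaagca
Rpl34-ps1, coding bases 288 to 348: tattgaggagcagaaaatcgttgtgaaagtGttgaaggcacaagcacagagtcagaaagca
The sum of the pair ran from 1170.26 (xHomo 4) to 2959 FPKM (xHomo 9) and stood at 1953 in xHomo 3, with an SD of 0.073 after the shift. The difference of Rpl34 alone was -0.11 (SE 0.78, limma adjusted p = 0.972), and that of the sum was 0.33 (SE 0.23, limma adjusted p = 0.654). Without xHomo 3, Rpl34 alone gave 0.34.

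Rpl26 and Rpl30 were low in all embryos, and nearly all of the level at their loci stood in the second row. Rpl26, which lies by the exit tunnel (chr11:68715068-68718036, mm9), was at 22.2, 3.40 and 17.4 FPKM in xHet 1, 2 and 3. In xHomo embryos it ran from 0 (xHomo 2) over a median of 16.6 to 42.1 FPKM (xHomo 3). An entry of 0 for a gene that every cell uses says only that it is listed at 0. Gm15772, the row at the same locus, was at 1242 to 1398 FPKM in xHet and 1062 to 2731 FPKM in xHomo embryos, so Rpl26 held at most 2.32% of the sum.

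Rpl30 (chr15:34370261-34373031, mm9) was at 37.7, 33.9 and 32.2 FPKM in the xHet embryos and at 21.4 (xHomo 9) to 68.8 FPKM (xHomo 3) in the xHomo embryos, with 1.05% to 5.09% of the sum with Gm12191. It was lowest in the embryo in which 73 members were highest. Of 438 coding bases Rpl26 and Gm15772 differed at 2 (C177T and T288C), and of 348 Rpl30 and Gm12191 differed at 1 (G96A), each with the member's base first. The window around the single Rpl30 position is printed as the only place in the coding sequence that tells the 2 rows apart.
Rpl30, coding bases 66 to 126: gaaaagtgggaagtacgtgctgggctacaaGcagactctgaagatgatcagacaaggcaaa
Gm12191, coding bases 66 to 126: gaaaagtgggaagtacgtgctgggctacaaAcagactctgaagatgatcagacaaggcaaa
The sums had SDs of 0.076 (Rpl26) and 0.083 (Rpl30) after the shift, against 1.38 and 0.56 for the members alone. Their differences were 0.37 (SE 0.23, limma adjusted p = 0.601) and 0.27 (SE 0.20, limma adjusted p = 0.672). With all 4 rows replaced by sums, an alternative chosen after the values were seen, 0 rows had a jump, 77 of 77 members were higher in the xHomo mean, 0 passed limma and the median difference was 0.37.

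**Figure D5:**
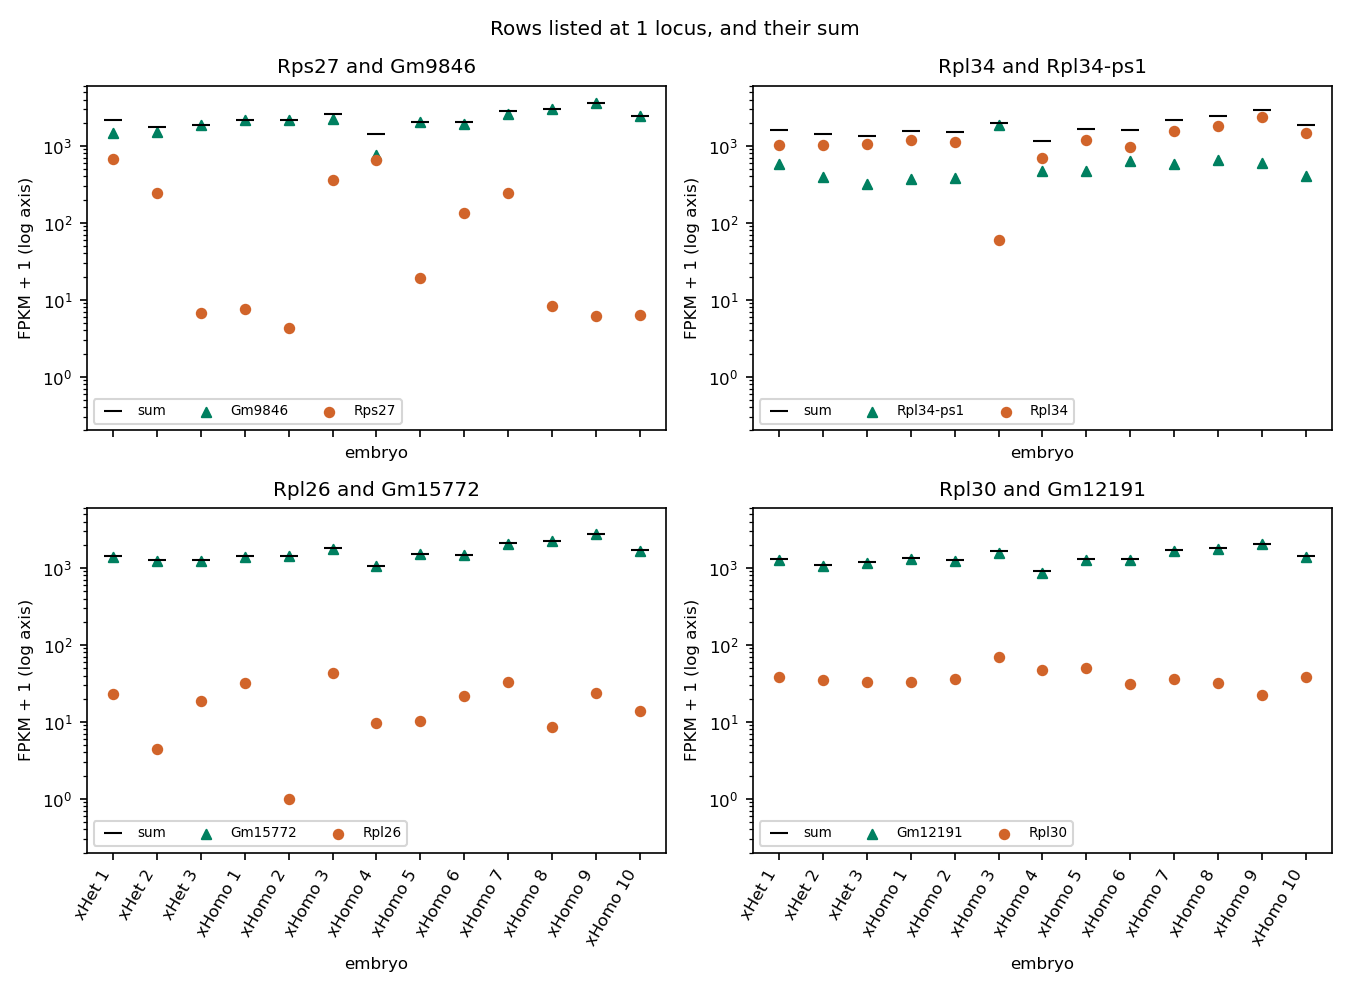
FPKM plus 1 on a log axis in 13 embryos for 4 members (orange circles), the row listed at the same locus (green triangles) and their sum (black dashes). Rps27 varies from 3.33 to 682 FPKM and Rpl34 lies at 58.7 FPKM in xHomo 3, while each sum is lowest in xHomo 4 and highest in xHomo 9.

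Shared sequence was the rule among the members, not a feature of these 4. A median of 92.4% of the 50-base windows of a member's coding sequence also occurred in a transcript annotated to another gene, 58 of 77 members had at least 80% such windows, and 27 had 100%. How fragments that fit more than 1 gene were shared out is not given in the sources used here, so the level of a member with a near-identical copy is uncertain. In all, 32 members had a row at the same locus, 22 of them a small RNA row such as an intronic snoRNA and 11 a row of another kind. Members without any such row, 45 in number, included Rplp1, Rpl41 and Rps29.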

How the data were processed

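The deposited table gives, per the file headers, FPKM for every gene in the 13 embryos and a locus on mm9. The submitters' processing notes name TopHat, Cufflinks and bcl2fastq 1.8.2. Settings, annotation and the treatment of fragments with several matches were not given in the sources used here. The unit holds no counts, and low values showed no steps worth 1 read, so depth per sample is unknown. Loci count starts from 0 in the table and are printed from 1. Groups were taken from the sample titles.

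Genes with a mean of at least 1 FPKM (12755) were tested on log2(FPKM+1), so folds of low genes are understated, with limma 3.58.1 in R 4.3.3 (trend, two-sided, Benjamini-Hochberg at 0.05, no covariate). Summaries used Python 3.11.15, numpy 2.4.6, pandas 2.3.3 and scipy 1.17.1. This step was also tested on simulated data with known changes. Coding sequences came from GENCODE M21 and promoters from RefSeq, both GRCm38. The rows at one locus were matched by identical locus entries.

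Members, gene lists and alternatives were chosen with earlier results of these data known. Named were the 8 highest and 8 lowest members by mean, the 8 with the smallest p, rows with a jump, the 5 with the smallest and largest SD after the shift, X-linked and stalk members, Rpsa, 13 members known from disease or mutants, other ribosomal proteins and paralogs, and up to 4 genes per list. Alternatives covered the pseudocount, filter, scaling, Xist, array weights, the replicate number as a block, an exact permutation test and leaving out each embryo. Some members that this rule names are not reported here by name, though counts and medians over the members include them.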

Additional observations from a re-analysis of the deposited data

Results flagged for a closer look

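Among the 77 members and their shared shift, 78 items in all, the lowest or highest of the 10 xHomo embryos was set against the others by Dixon's gap test, and 2 passed its 95% critical value. Rpl34 was at 58.72 FPKM in xHomo 3, with a gap of 0.672 of the range to the next embryo. Rpl26 was listed at 0.0 FPKM in xHomo 2, with a gap of 0.572 of the range. The test was made on the log2 scale, and chance alone flags about 1 in 20 groups. Both rows share a locus entry with a near-identical copy.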

How the results depend on the processing

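The count of 0 members passing limma held under every alternative run but array weights, which gave 68, and the median difference stayed positive throughout, between 0.131 (quantile normalization) and 0.419 (array weights). Leaving out 1 embryo gave 0 members in each of 13 fits, medians from 0.301 to 0.417, and shift ranges from 0.816 (without xHomo 9) to 1.045. The shift range of 1.045 became 0.722 in TPM, 0.706 in TPM without small RNA rows, 0.453 after quantile normalization and 1.065 under median-of-ratios scaling. The 4 rows with a jump numbered 3 at a threshold of 2 log2 units and 0 after summing with the row at the same locus; without taking off the shared shift there were again 4, with Rpl17 in place of Rpl30. Same-number deviations of xHet and xHomo embryos correlated at -0.07, -0.04 and -0.04, within the range of different-number pairs (-0.143 to 0.116). These 3 values gave no sign that the numbers pair embryos, but cannot exclude it. With the replicate number as a block, 0 members passed and the median difference was 0.241. Only numbers 1, 2 and 3 occur in both groups, so the block fit compared those embryos alone. The xHomo embryos with other numbers did not enter its differences, and so few embryos made calls unlikely. Over 48 named genes and 26 alternatives, 1192 of 1248 differences kept direction and side of the threshold, 38 passed only with array weights and 18 changed sign. In TPM without small RNA rows the sign changed for Rpl22l1 (-0.015), Rpl26 (-0.08), Rpl30 (-0.093), Rpl7l1 (-0.085) and Rps27l (-0.021). Rpl22l1 was also at -0.029 with Xist as covariate, -0.032 with low Xist alone and -0.054 after quantile normalization. Rpl26 was at -0.086 with a pseudocount of 0.1, -0.154 with the block, and -0.575 (without xHet 2) to 0.624 (without xHet 1) when 1 embryo was left out, with -0.012 without xHomo 3. Rpl30 ran from -0.014 (without xHomo 3) to 0.167 (without xHomo 9). Rpl34 was at 0.376 with array weights, 0.122 with low Xist alone, -1.254 with the block, 0.327 summed and -0.251 (without xHomo 9) to 0.339 (without xHomo 3), and Rps27 at 0.298 summed, -2.182 with the block and -3.621 (without xHet 3) to -0.284 (without xHet 1). The cause of these changes was not tested, apart from the sums, which change the rows themselves. Depth is unknown, so rows of a few FPKM are the least certain.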
